A study of Mus musculus with 24 samples.

Results

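The genes that copy the genome during S phase were followed across 24 RNA-seq libraries of cultured mouse epidermal progenitor cells. The set was chosen by gene name and role and holds 39 genes, of which 36 were found among the 10818 genes of the deposited table. *Tk1*, *Cdt1* and *Gins2* were not analysed here. All 36 passed the filter on low values, which kept genes that reached 1 in 3 or more libraries.

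The cells were primary keratinocytes of newborn pups, grown with 3T3-J2 fibroblast feeder cells in low-calcium medium. In one experiment they carried a lentiviral hairpin against *Id1* (*shId1*) or a scrambled hairpin (*shScr*). In the other, all cells carried a doxycycline-inducible ID1 construct and were kept without doxycycline (-dox) or given it for 3 days (+dox). Each of these 4 conditions was sampled as progenitors (0 h) and after 24 h of differentiation in high calcium (24 h), with 3 libraries per group and 12 per experiment. Since no low-calcium culture of the later time was included, the effect of calcium and that of a further 24 h of culture cannot be told apart. No cells without the ID1 construct were given doxycycline, so effects of ID1 and of doxycycline itself cannot be told apart either. Induction below means +dox compared with -dox. The labels call the libraries biological replicates. The sources used here do not say that they were separate cultures, and p-values then cover only the spread between these samples, which may be technical. Deposited columns named for an H2BGFP vector were read as *shScr*, because they alone lacked ID1 in their names. The study asked whether ID1 promotes the proliferation of epidermal progenitors and how its loss or gain bears on their differentiation.

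A cell copies its DNA once per division. In G1 the origin recognition complex, with CDC6, loads the ring of MCM2 to MCM7 on DNA. CDC45 and the GINS complex then switch that ring on as the replicative helicase. Primase and DNA polymerase alpha start each new strand, and the polymerases delta and epsilon extend it, tethered by the PCNA clamp that the RFC complex loads. RPA shields single-stranded DNA, FEN1 and LIG1 join Okazaki fragments, and ribonucleotide reductase, thymidylate synthase and dUTPase keep the nucleotide pools. Transcription of most of these genes is known to be driven by E2F factors, which cyclin E with CDK2 helps to release from pocket proteins. In stratified epithelium, replication is a property of basal cells and is lost as they move upward.

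Values are CPM after TMM scaling and are not divided by gene length. A fold change is the difference between group means of log2(value + 0.5), which understates the change of genes with low values. A gene passed when limma gave an adjusted p under 0.05 over all genes tested. Overlap between groups is given as a description only, since passing genes were picked on the same values. No share over all genes stands beside it. Libraries held 21442371 to 35720140 reads in the table. *Id1* itself was 60.7, 103 and 111 in *shScr* and 25.7, 19.7 and 39.0 in *shId1* cells at 0 h, a log2 fold change of -1.69 ± 0.38 (SE, n = 3, adjusted p = 0.0183). At 0 h it was 10.5, 13.2 and 7.15 without and 41.6, 107 and 73.0 with doxycycline (2.72 ± 0.27, adjusted p = 2.51e-06). At 24 h neither difference passed, with -0.67 ± 0.38 for *shId1* (adjusted p = 0.265) and 0.46 ± 0.27 for +dox (adjusted p = 0.232), and the *shId1* and *shScr* values overlapped. In -dox cells it was 73.9, 67.5 and 59.7 at 24 h. The 24 h groups below therefore rest on their labels, since the *Id1* level gave no call between them.

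Of the marker lists, all 12 basal keratinocyte genes were in the table, with a summed value of 28849 to 41535 at 0 h. Only 4 of 8 spinous and granular genes and 4 of 22 fibroblast genes (*Col6a1*, *Col6a2*, *Postn*, *Mmp2*) were in the table. *Krt1*, *Col1a1* and *Vim* are among those not analysed here. None of 7 immune genes was in the table.

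Among the progenitors, levels were compared per kilobase of the longest coding transcript. In *shScr* cells at 0 h the highest was *Rrm2*, at 231 ± 18.8 per kilobase (SD, n = 3), followed by *Pcna* at 168 ± 5.47 and *Rrm1* at 135 ± 6.59. *Rrm2* and *Rrm1* encode the small and large subunit of ribonucleotide reductase, which makes deoxyribonucleotides, and *Pcna* encodes the sliding clamp. The 6 MCM genes ranged from 63.7 ± 5.05 for *Mcm2* to 128 ± 2.24 for *Mcm7*. *Mcm3* at 108 ± 9.22 and *Mcm5* at 110.4 ± 2.63 did not differ beyond their spread. The lowest was *Orc1*, the largest subunit of the origin recognition complex, at 1.43 ± 0.115, followed by *Ccne2* at 4.64 ± 0.473. *Fen1* at 6.56 ± 0.348 and *Gins3* at 6.58 ± 1.04 did not differ beyond their spread. Exons of 13 members overlap a gene on the other strand, among them *Mcm7*, *Cdc45*, *Pole*, *Rfc5*, *Fen1* and *Lig1*. The library kit keeps strand, but the sources used here do not say whether the counting used it. *Rpa1* overlaps an annotated gene on its own strand, and *Pcna* and *Tyms* have named pseudogenes, so their levels are less certain.

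Upon differentiation the replication genes fell together. After 24 h in high calcium, all 36 were lower in *shScr* cells (background: 30.1% of all genes tested were called lower and 30.6% higher). All 36 were also lower in *shId1* cells (28.0% lower and 29.5% higher) and in -dox cells (38.3% lower and 37.6% higher). In +dox cells 35 of 36 were lower (39.1% lower and 35.6% higher), and none was higher in any group, also at an unadjusted p under 0.05 in limma or by edgeR on recovered reads. The edgeR test held 18 libraries: 3 each of *shScr* at 0 h, -dox at both times and +dox at 24 h, 2 each of *shId1* at 0 h and *shScr* at 24 h, and 1 each of *shId1* at 24 h and +dox at 0 h. A group of 1 library is there assumed to vary like the others, so edgeR counts that involve these last groups have no replicate of their own in 1 arm. The median log2 fold change of the members was -1.51 in *shScr*, -1.30 in *shId1*, -1.99 in -dox and -1.58 in +dox cells, beside medians of 0.01, 0.02, -0.02 and -0.05 over all genes. The median thus corresponds to 2.86-fold, 2.46-fold, 3.96-fold and 2.98-fold lower values. In bulk RNA, fewer cells in S phase and less of these transcripts per cell cannot be told apart.

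The fall was more than 2-fold for 31 members in *shScr* (7.97% of all genes), 30 in *shId1* (6.20%), 33 in -dox (15.9%) and 33 in +dox cells (14.9%). Of the 36 genes, 27 fell more than 2-fold in all 4 groups. *Ccne1* and *Rfc2* did so in none. The summed value of the 36 genes went from between 5629.8 and 5804 to between 1935 and 2130.5 in *shScr* libraries, and from between 3753 and 4603 to between 1010.2 and 1101 in -dox libraries. No 24 h library reached the lowest 0 h library of its experiment.

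**Figure D1:**
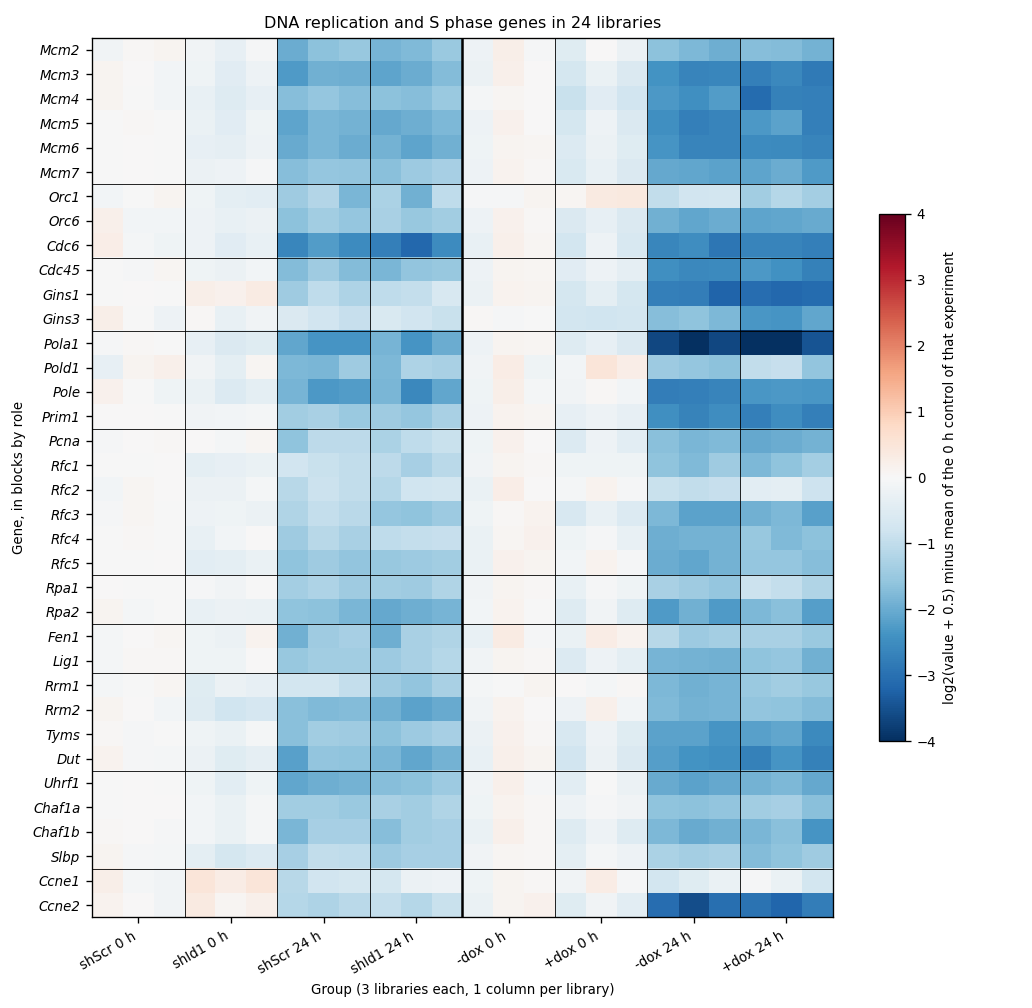
Each row is 1 of the 36 genes, in blocks by role, and each column 1 library, 3 per group. Colour gives log2(value + 0.5) minus the mean of the *shScr* 0 h libraries (left 12 columns) or of the -dox 0 h libraries (right 12 columns). The 24 h columns are blue for nearly every gene, darkest for *Pola1* in the ID1 experiment, and the 0 h columns stay near white.

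Of the origin licensing genes, *Cdc6*, whose product loads the MCM ring, fell furthest in the shRNA experiment. Its values were 63.8, 50.1 and 46.8 in *shScr* cells at 0 h and 8.34, 11.0 and 8.86 at 24 h, a log2 fold change of -2.45 ± 0.17 (SE, adjusted p = 3.46e-07). In *shId1* cells it went from 45.8, 38.8 and 43.4 to 7.61, 5.56 and 8.96 (-2.47 ± 0.17, adjusted p = 7.36e-07). The groups were far apart in both, and the falls were -2.65 ± 0.17 in -dox and -2.15 ± 0.17 in +dox cells.

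All 6 MCM helicase genes were more than 2-fold lower in each of the 4 groups, with medians over the 6 genes of -1.83 in *shScr*, -1.58 in *shId1*, -2.43 in -dox and -2.02 in +dox cells. The largest change was that of *Mcm3* in *shScr* (-2.04 ± 0.13), *Mcm6* in *shId1* (-1.68 ± 0.09), *Mcm5* in -dox (-2.61 ± 0.15) and *Mcm3* in +dox cells (-2.20 ± 0.13). *Mcm3* values were 357, 328 and 301 in *shScr* at 0 h and 68.3, 86.5 and 84.0 at 24 h. Per kilobase, *Mcm7* stayed the most abundant MCM gene at 24 h in *shScr* cells, at 41.9 ± 2.50, while *Mcm2* at 19.5 ± 3.25 had the lowest mean and overlapped with *Mcm6*.

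Of the helicase activation genes, *Cdc45* had log2 fold changes of -1.64 in *shScr*, -1.48 in *shId1*, -2.52 in -dox and -2.13 in +dox cells. For the GINS subunit gene *Gins1* they were -1.22 and -1.10 in *shScr* and *shId1* cells and -2.90 and -2.50 in -dox and +dox cells. *Gins3*, another GINS subunit, was the member that changed least in the shRNA experiment, at -0.76 ± 0.14 in *shScr* (adjusted p = 0.000709) and -0.63 ± 0.14 in *shId1* cells (adjusted p = 0.00288). Its *shScr* values were 19.3, 16.4 and 14.1 at 0 h and 10.8, 9.36 and 8.53 at 24 h, without overlap.

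The polymerase genes held the deepest fall. *Pola1*, the catalytic subunit of DNA polymerase alpha, was 72.3, 91.0 and 88.9 in -dox cells at 0 h and 6.19, 4.05 and 6.25 at 24 h. That is a log2 fold change of -3.83 ± 0.21 (adjusted p = 4.79e-10), and in +dox cells it was -3.49 ± 0.21. In *shScr* cells *Pola1* went from 132, 142 and 134 to 31.6, 25.9 and 26.2 (-2.27 ± 0.13), and in *shId1* cells the log2 fold change was -1.60. *Pole*, which encodes the catalytic subunit of polymerase epsilon, was the most changed of this role in *shId1* cells (-1.77 ± 0.18).

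All 6 genes of the clamp and its loader were lower as well. The median over *Pcna* and *Rfc1* to *Rfc5* was -1.15 in *shScr*, -0.94 in *shId1*, -1.84 in -dox and -1.47 in +dox cells. The most changed was *Rfc5* in *shScr* (-1.54 ± 0.08) and, with *Pcna* at the same rounded value, in +dox cells (-1.58 ± 0.12), and *Rfc3* in *shId1* (-1.33 ± 0.09) and -dox cells (-2.03 ± 0.14). *Rfc2* was lower by less than 2-fold everywhere, from 90.4, 104 and 99.6 to 44.9, 53.1 and 49.4 in *shScr* cells.

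Of the genes for single-strand binding, *Rpa2* had log2 fold changes of -1.70 in *shScr*, -1.68 in *shId1*, -2.15 in -dox and -1.51 in +dox cells. *Rpa1*, the large RPA subunit, fell by 0.83 in +dox cells, the smallest change of this role. For Okazaki fragment joining, the larger change was that of the flap nuclease gene *Fen1* in *shScr* (-1.56 ± 0.21), *shId1* (-1.40 ± 0.21) and +dox cells (-1.42 ± 0.18), and of the ligase gene *Lig1* in -dox cells (-1.89 ± 0.11).

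Nucleotide supply was led by *Dut*, the dUTPase that keeps uracil out of DNA, at -1.79 ± 0.15 in *shScr*, -1.58 ± 0.15 in *shId1*, -2.36 ± 0.15 in -dox and -2.07 ± 0.15 in +dox cells. *Dut* values were 85.4, 75.5 and 73.8 in *shScr* cells at 0 h and 16.8, 25.9 and 25.4 at 24 h. *Uhrf1*, which brings DNA methylation to newly copied DNA, was the most changed of the chromatin copying genes in each of the 4 groups, at -1.97 ± 0.10 in *shScr*, -1.33 ± 0.10 in *shId1*, -2.07 ± 0.12 in -dox and -1.67 ± 0.12 in +dox cells.

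Of the cyclin E genes, *Ccne2* went from 8.27, 10.8 and 11.2 to 0.759, 0.405 and 0.794 in -dox cells, a log2 fold change of -3.21 ± 0.19 (adjusted p = 1.07e-09), and fell by 2.61 in +dox cells. In the shRNA experiment it fell by 1.15 in *shScr* and 1.22 in *shId1* cells, beside -0.85 and -0.79 for *Ccne1*, which passed in both. The 24 h values of *Ccne2* in the ID1 experiment rest on few reads, since 1 read was worth 0.0263 to 0.0496. They also lie near the added 0.5, which understates the fall. In -dox cells the mean of *Ccne2* went from 10.1 to 0.652 and that of *Pola1* from 84.1 to 5.50. Which of these 2 genes fell further is thus not settled. *Ccne1* was the member that changed least in the ID1 experiment, at -0.50 ± 0.17 in -dox cells (adjusted p = 0.0149). In +dox cells it was 33.2, 45.0 and 36.1 at 0 h and 35.4, 31.0 and 21.9 at 24 h, overlapping groups, and it was the single member that did not pass (-0.38 ± 0.17, adjusted p = 0.0519). Its -dox call was lost without -dox 0 h replicate 2 or without -dox 24 h replicate 1 (highest adjusted p over 17 alternatives 0.0804).

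**Figure D2:**
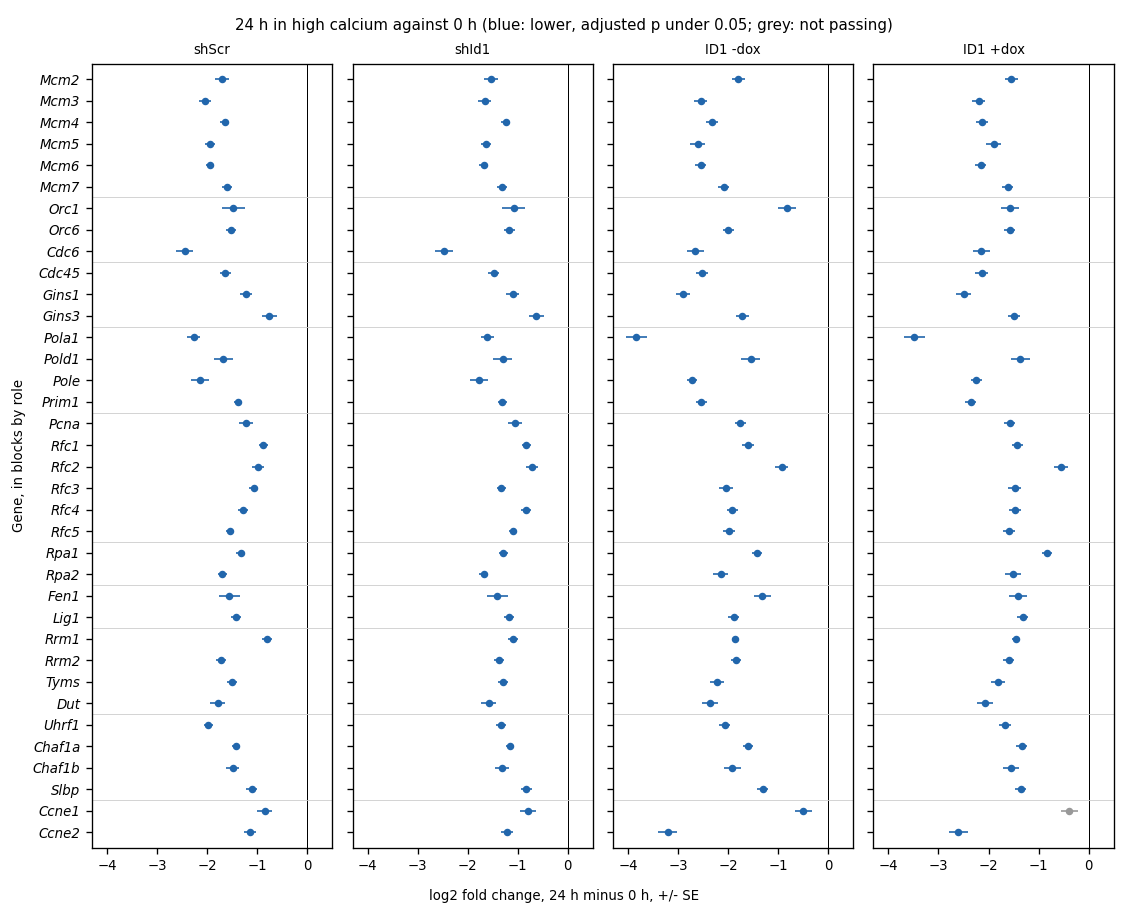
Points are log2 fold changes of 24 h over 0 h with their SE for the 36 genes in *shScr*, *shId1*, -dox and +dox cells (3 against 3 libraries each), blue where the adjusted p is under 0.05. All points but that of *Ccne1* in +dox cells are blue, and they reach from -0.38 for *Ccne1* to -3.83 for *Pola1*.

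The calcium groups also differed in other respects. The share of mitochondrial transcripts was 2.84 to 3.47% at 0 h and 0.838 to 1.33% at 24 h in the ID1 experiment, and 2.27 to 3.34% at 0 h and 2.16 to 2.95% at 24 h in the shRNA experiment. The summed fibroblast markers were 49.6 to 67.2 in *shScr* at 0 h and 127 to 137 at 24 h, 69.4 to 87.8 and 63.3 to 108 in *shId1*, 161 to 201 and 263 to 284 in -dox, and 238 to 358 and 359 to 411 in +dox cells. In *shId1* cells the fibroblast sums of both times thus overlapped. Each sum rests on 4 of the 22 listed fibroblast genes. The summed spinous and granular markers were 594 to 754 at 0 h and 1628 to 2700 at 24 h in *shScr* libraries, and 817 to 969 and 1849 to 2129 in -dox libraries. The summed basal markers were higher at 24 h as well, at 29622 to 34720 and 41522 to 59221 in *shScr* and 28849 to 31020 and 35695 to 57316 in *shId1* libraries. They were 40010 to 41535 and 61859 to 66406 in -dox, and 35056 to 39054 and 57338 to 69806 in +dox libraries. By gene, 4 of the 12 basal markers were higher and 3 lower in *shScr* cells (30.6% and 30.1% of all genes). The part of these shifts in the fall of the replication genes was not tested.

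The promoters of the members were read because E2F sites are the textbook feature of this gene set. Of the 36 genes, 31 were matched by symbol in the RefSeq promoter table (GRCm38.p6), which gives 250 bases before and 50 after each start. *Mcm4*, *Gins1*, *Pole*, *Rfc2* and *Ccne2* were not matched. One of the E2F words TTTGGCGC, TTTCGCGC, TTTCCCGC or TTTGGCGG, on either strand, was present in 14 of 31 (45.2%). The share was 5.37% of 8342 matched genes of the table and 2.70% of all 27025 genes of the promoter table. The CCAAT box, on either strand, was present in 21 of 31 (67.7%, against 43.1% and 41.1%), and the CHR element TTTGAA in 4 of 31 (12.9%, against 14.3% and 20.2%). TTTCGCGC reads GCGCGAAA on the other strand, so neighbouring words can share bases. These matches are a description of letters in a window.

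The following stretches are shown because they belong to 6 members that had the largest change of their role in at least 1 group and hold at least 1 E2F word before the start. They run 5′ to 3′ on the strand of the gene, with the E2F words in capitals, 20 bases on either side where these lie before the start, and coordinates in GRCm38.p6.
*Mcm6* (chr1:128359725-128359835, minus strand): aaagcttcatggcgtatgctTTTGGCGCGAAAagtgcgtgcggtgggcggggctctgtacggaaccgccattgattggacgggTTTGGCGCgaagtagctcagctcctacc
*Mcm5* (chr8:75109336-75109387, plus strand): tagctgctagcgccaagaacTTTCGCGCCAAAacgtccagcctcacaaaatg
*Cdc6* (chr11:98907993-98908040, plus strand): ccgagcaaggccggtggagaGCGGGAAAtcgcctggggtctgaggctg
*Pola1* (chrX:93632266-93632313, minus strand): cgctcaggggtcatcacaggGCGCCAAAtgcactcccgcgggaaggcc
*Rfc3* (chr5:151651209-151651238, minus strand): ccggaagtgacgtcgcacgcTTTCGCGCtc
*Uhrf1* (chr17:56304108-56304155, plus strand): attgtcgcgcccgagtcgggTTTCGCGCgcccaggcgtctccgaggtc

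*Mcm6* held 3 words, and in *Mcm5* and *Mcm6* words shared bases. For *Uhrf1* the stretch precedes the second of its starts in the table. In *shScr* cells the median fold change was -1.64 over 14 genes with and -1.50 over 17 genes without a word. In *shId1* cells the medians were -1.33 and -1.30, in -dox cells -2.05 and -1.91, and in +dox cells -1.60 and -1.55. *Gins3* also holds a word, and was the member with the smallest change in the shRNA experiment.

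Genes of most lists around the set were mostly lower as well. Of all genes, 30.1% were lower in *shScr*, 28.0% in *shId1*, 38.3% in -dox and 39.1% in +dox cells. Of 38 other replication fork and origin genes, 34 were lower in *shScr*, 32 in *shId1*, 35 in -dox and 34 in +dox cells, with medians of -1.17, -0.94, -1.81 and -1.50. *Mcm10*, a helicase activation factor, fell by 2.33 in *shScr* cells on the log2 scale (adjusted p = 2.88e-08), and *Atad5*, which unloads PCNA, fell by 3.36 in -dox cells (adjusted p = 3.42e-12). Of 30 checkpoint and fork repair genes, 28, 28, 29 and 28 were lower in the same order of groups. *Chek1*, the S phase checkpoint kinase, fell by 2.16 in *shScr* cells (adjusted p = 2.88e-08). Of 48 genes of G2 and mitosis, 48, 48, 47 and 47 were lower, with medians of -1.37, -1.09, -2.81 and -2.09.

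Among 22 other nucleotide synthesis genes 19, 17, 17 and 17 were lower and 2, 2, 3 and 2 higher. Of 18 E2F, pocket protein and MuvB genes 14, 13, 16 and 15 were lower, among them *Mybl2*, at -2.23 in *shScr* cells (adjusted p = 2.84e-08). Of 14 chromatin copying and histone supply genes 13, 13, 12 and 11 were lower. The 15 G1-S cyclins, kinases and inhibitors moved both ways, with 9, 8, 6 and 6 lower and 5, 4, 6 and 4 higher. Of all genes, 30.6%, 29.5%, 37.6% and 35.6% were higher in the same order. The higher counts of this list are close to or below these shares. Its lower counts in -dox and +dox cells are close to the 38.3% and 39.1% of all genes that were lower. *Ccna2*, the S phase cyclin, fell by 3.49 in -dox cells (adjusted p = 2.13e-12). *Cdkn1a*, the CDK inhibitor p21, rose by 1.88 in the same cells (adjusted p = 8.80e-11).

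Knockdown was compared at 0 h to ask whether progenitors with less *Id1* carry less of the replication machinery. In *shId1* compared with *shScr* progenitors, 5 of 36 members were lower and none was higher in limma (3.44% of all genes were lower and 4.03% higher). At an unadjusted p under 0.05, 16 were lower and 1 was higher, and edgeR on recovered reads called 12 lower and 0 higher. Shares of all genes under these rules are not given here, so these counts describe direction only. The 5 were *Rrm2*, *Slbp*, *Rfc5*, *Mcm4* and *Pola1*, each from another role, and none changed more than 2-fold (1.94% of all genes did). The median over the 36 was -0.19, beside 0.00 over all genes, and 32 of 36 fold changes lay below 0.

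*Rrm2* showed the largest difference. It was 549, 507 and 467 in *shScr* and 351, 294 and 318 in *shId1* cells, and the groups did not overlap (-0.66 ± 0.09, adjusted p = 0.00128). *Slbp*, which binds the stem-loop of histone mRNAs, was 88.8, 80.1 and 78.1 against 62.1, 50.8 and 56.4 (-0.54 ± 0.11, adjusted p = 0.0120). Both genes serve the supply side of replication, nucleotides and histones.

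*Rfc5* was 107, 109 and 111 in *shScr* and 82.3, 83.8 and 91.7 in *shId1* cells (-0.35 ± 0.08, adjusted p = 0.0257). *Mcm4* was 376, 348 and 323 against 286, 246 and 275 (-0.37 ± 0.09, adjusted p = 0.0340). *Pola1* was 132, 142 and 134 against 107, 91.3 and 95.9 (-0.47 ± 0.13, adjusted p = 0.0459). All 3 genes were lower in each *shId1* library than in any *shScr* library, which adds no support to calls made on the same values.

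Among the members that did not pass, *Rrm1* was 512, 536 and 565 against 385, 453 and 429.9 (-0.35 ± 0.10, adjusted p = 0.0569). *Ccne1*, at the other end, was 55.0, 43.8 and 42.1 against 65.0, 57.1 and 64.8 (0.41 ± 0.16, adjusted p = 0.142). When same-numbered libraries were blocked, 9 members were lower (6.10% of all genes). The count fell to 1, 2 and 3 without *shScr* replicate 1, 2 or 3, to 1 without *shId1* replicate 2 and to 3 without *shId1* replicate 3, so single libraries decide all of these calls but that of *Rrm2*, which was kept in 19 of 19 alternatives. In these groups the mitochondrial share was 2.27 to 2.45% in *shScr* and 2.86 to 3.34% in *shId1* cells, and the 4 fibroblast markers summed to 49.6 to 67.2 and 69.4 to 87.8. Their part in the differences was not tested.

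The neighbouring lists gave few calls at 0 h (3.44% of all genes were lower and 4.03% higher). Lower were 4 of 22 nucleotide synthesis genes, among them *Rrm2b*, the alternative small subunit of ribonucleotide reductase (-0.48, adjusted p = 0.0299), and 1 of 38 other fork and origin genes, *Donson* (-0.69, adjusted p = 0.00554). Of the G1-S list, 3 of 15 were lower, including *Ccnd2* (cyclin D2, -0.80, adjusted p = 0.00190), and *Cdkn2a*, the locus of the inhibitor p16, was higher (1.27, adjusted p = 0.00251). Of 48 G2 and mitosis genes, 1 was lower.

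After 24 h in calcium, *shId1* compared with *shScr* cells showed 3 members lower and 1 higher (6.72% of all genes were lower and 7.90% higher), and the median over the 36 was 0.03. None changed more than 2-fold (3.35% of all genes). *Rrm1* was 323, 320.2 and 277 in *shScr* and 198, 180.2 and 217 in *shId1* cells, well apart (-0.63 ± 0.10, adjusted p = 0.00198). *Rrm2* was 157, 149.7 and 151 against 132, 115 and 124 (-0.31 ± 0.09, adjusted p = 0.0435). Both subunits of ribonucleotide reductase were thus called lower with the hairpin at 24 h, but the *Rrm2* call was lost in 7 of 19 alternatives. The number of lower members is close to the share of all genes.

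*Rfc3*, a small subunit of the clamp loader, was 19.8, 23.9 and 22.0 against 15.6, 15.1 and 16.8 (-0.46 ± 0.09, adjusted p = 0.00576). *Uhrf1* went the other way, with 50.6, 56.0 and 57.7 in *shScr* and 66.4, 69.4 and 79.1 in *shId1* cells (0.38 ± 0.10, adjusted p = 0.0195). None of the 4 genes overlapped between the groups, which adds no support to calls made on the same values. When same-numbered libraries were blocked, 3 members were lower and 3 higher (10.1% of all genes were lower). With a block within each time, added after seeing the data, 5 were lower, and the higher count is not given here. The *Uhrf1* call was lost without *shScr* 24 h replicate 1, without *shId1* 24 h replicate 3, with the compared groups alone and in edgeR, where 1 *shId1* library stood against 2 *shScr* libraries (highest adjusted p over 19 alternatives 0.143). The *Rrm2* call was lost without any 1 of the 3 *shScr* libraries or of *shId1* replicates 2 and 3, with the compared groups alone and in the same edgeR test (highest 0.139). The *Rfc3* call was lost with the compared groups alone (adjusted p = 0.0528), and *Rrm1* passed in all 19. The 4 fibroblast markers summed to 127 to 137 in *shScr* and 63.3 to 108 in *shId1* libraries, and their part in these differences was not tested. Of the 48 G2 and mitosis genes 10 were higher and 0 lower (7.90% of all genes were higher and 6.72% lower). Their median was 0.20, and *Kif23*, a motor protein of cytokinesis, led (0.69, adjusted p = 0.000779).

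**Figure D3:**
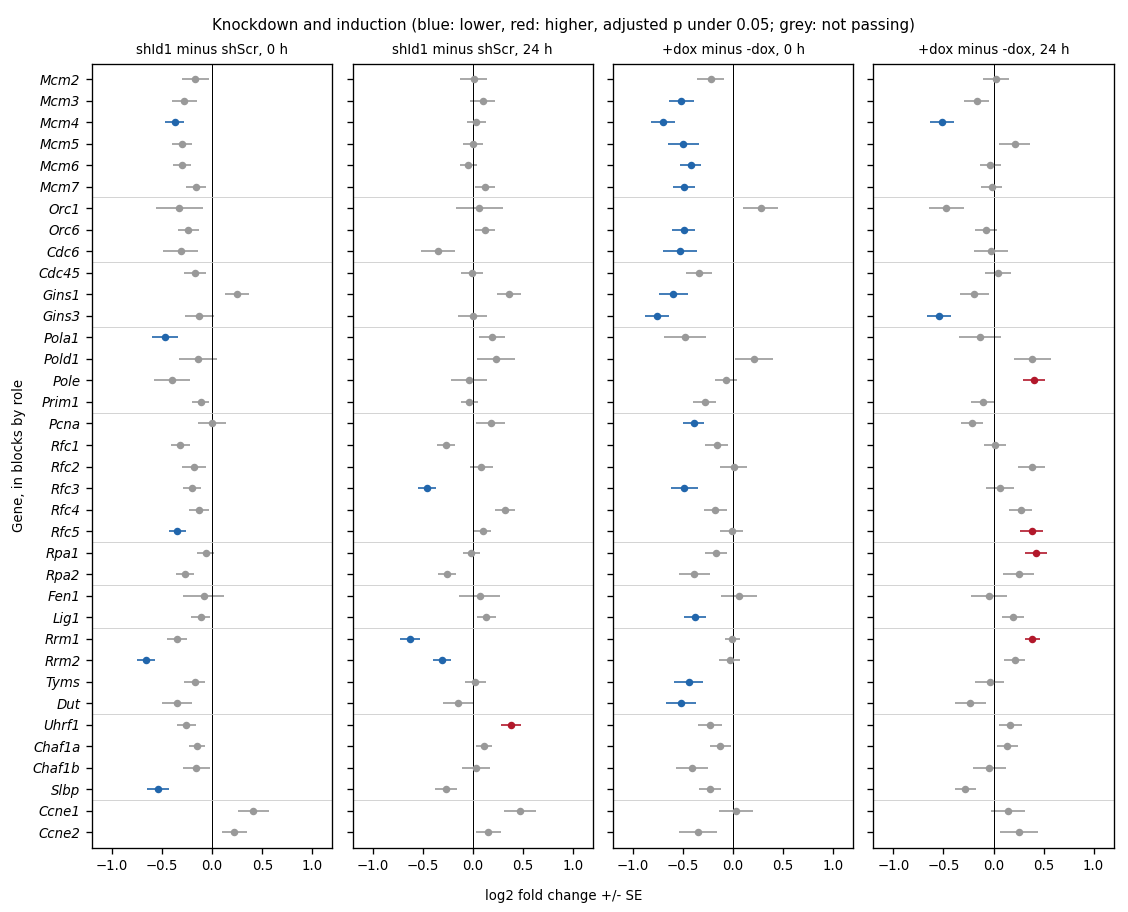
Points are log2 fold changes with their SE for the 36 genes, for *shId1* over *shScr* and for +dox over -dox at 0 h and 24 h (3 against 3 libraries each). Blue marks lower and red higher genes at an adjusted p under 0.05: 5 and 0 in the first panel, 3 and 1 in the second, 14 and 0 in the third, 2 and 4 in the fourth.

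Induction was compared to ask the converse, whether more ID1 goes with more of the replication machinery. In +dox compared with -dox progenitors at 0 h, 14 of 36 members were lower and none was higher in limma (13.8% of all genes were lower and 20.5% higher). At an unadjusted p under 0.05, 20 were lower and 0 higher. The share of all genes under that rule is not given here, so this count describes direction only. None changed more than 2-fold (5.27% of all genes). The median over the 36 was -0.35, beside 0.00 over all genes, and 31 of 36 fold changes lay below 0. The summed value of the members was 3753 to 4603 in -dox and 3174 to 3849 in +dox libraries, which overlap: -dox replicate 1 was the lowest of its group and +dox replicate 2 the highest. In order of replicate number the sums were 3753, 4603 and 4329 in -dox and 3174, 3849 and 3369 in +dox libraries. Each +dox sum was thus below the same-numbered -dox sum, but whether same-numbered libraries belong together is not known. These pairs had r = 0.276, 0.468 and -0.113 in their deviations from the group means. When same-numbered libraries were blocked, 16 members were lower (13.9% of all genes).

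The genes that load and form the helicase made up most of the 14. *Gins3* was 19.1, 17.8 and 18.0 without and 10.7, 10.2 and 10.8 with doxycycline, without overlap (-0.76 ± 0.12, adjusted p = 0.000219). *Mcm4* was 251, 277 and 267 against 143, 192 and 156 (-0.70 ± 0.12, adjusted p = 0.000422). *Mcm3*, *Mcm5*, *Mcm6* and *Mcm7* fell by 0.52, 0.50, 0.42 and 0.49 on the log2 scale in that order and did not overlap between groups, and *Mcm2* did not pass (-0.22 ± 0.13, adjusted p = 0.205). *Gins1* was 34.2, 43.7 and 42.7 against 24.3, 30.7 and 24.2, also lower. Of the licensing genes *Orc6* and *Cdc6* passed, and *Cdc6*, at 19.0, 26.8 and 24.9 against 13.8, 20.3 and 14.6, overlapped (-0.53 ± 0.17, adjusted p = 0.0250).

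At the fork and in nucleotide supply, the calls were *Rfc3*, *Pcna*, *Lig1*, *Dut* and *Tyms*. *Rfc3* was 37.5, 42.9 and 46.0 against 26.9, 34.2 and 28.9 (-0.49 ± 0.14, adjusted p = 0.0136). *Lig1* was 115, 136 and 130.0 against 87.0, 110.0 and 96.4 (-0.38 ± 0.11, adjusted p = 0.0165). *Dut* was 47.9, 66.9 and 62.5 against 34.4, 50.1 and 38.9, with overlap (-0.52 ± 0.15, adjusted p = 0.0173). *Rrm1* and *Rrm2* did not pass, at 487, 505 and 550.1 against 515, 489 and 527 for *Rrm1* (-0.01 ± 0.08, adjusted p = 0.938). No polymerase gene, RPA gene, chromatin copying gene or cyclin E gene passed.

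The count depended on single libraries. It was 8 without -dox replicate 2, without -dox replicate 3 or without +dox replicate 3, and 7 without +dox replicate 1. *Gins3*, *Gins1*, *Orc6*, *Mcm3*, *Mcm4*, *Mcm6* and *Mcm7* passed in all 17 alternatives. The fibroblast markers summed to 161 to 201 in -dox and 238 to 358 in +dox libraries, and the spinous and granular markers to 817 to 969 and 556 to 616. The mitochondrial share was 3.20 to 3.47% and 2.84 to 3.03%. Their part in these differences was not tested.

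Of all genes, 13.8% were lower and 20.5% higher at 0 h. The list of other fork and origin genes had 11 lower and 2 higher of 38, led by *Gins4* (-0.63, adjusted p = 0.000345), the fourth GINS subunit. Of 14 chromatin copying and histone supply genes 6 were lower, led by the histone chaperone gene *Nasp* (-0.61, adjusted p = 0.000478). Of the 48 G2 and mitosis genes 10 were lower and 1 higher. By contrast, in the G1-S list 6 of 15 were higher and 3 lower, and *Ccnd1* and *Ccnd2*, the cyclins D1 and D2, were higher by 1.49 (adjusted p = 1.12e-05) and 0.92 (adjusted p = 5.73e-05). These cyclin D genes rose in the libraries in which 5 MCM and 3 GINS genes fell.

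At 24 h, +dox compared with -dox cells had 4 members higher and 2 lower (10.6% of all genes were higher and 10.9% lower), a median of 0.02, and 0 that changed more than 2-fold (2.11% of all genes). The 2 lower genes were those that led at 0 h. *Gins3* was 5.23, 5.62 and 4.86 against 3.26, 3.19 and 3.91 (-0.54 ± 0.12, adjusted p = 0.00565), and *Mcm4* was 53.3, 48.3 and 56.1 against 30.6, 40.2 and 39.7 (-0.52 ± 0.12, adjusted p = 0.00750). Neither overlapped.

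The 4 higher members came from 4 roles, and their share is close to that of all genes. *Rrm1* was 148, 136 and 141 without and 183, 195 and 179 with doxycycline (0.39 ± 0.08, adjusted p = 0.00259). *Rpa1* was 65.9, 60.3 and 56.1 against 90.7, 84.3 and 70.9 (0.43 ± 0.11, adjusted p = 0.0120). *Pole* was 10.5, 10.7 and 11.4 against 14.6, 14.8 and 14.3 (0.41 ± 0.11, adjusted p = 0.0153). *Rfc5* was 19.2, 17.9 and 20.2 against 25.7, 26.1 and 23.2 (0.38 ± 0.12, adjusted p = 0.0316).

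The groups did not overlap for any of these 4 genes, which adds no support, since a test on the same values picked them. Of the 4, *Rrm1* passed in all 17 alternatives, as did *Mcm4* among the lower genes. *Gins3* was lost with the compared groups alone (adjusted p = 0.0545). The number of higher members was 2 without -dox replicate 1 or -dox replicate 3, 1 without +dox replicate 2 and 9 without +dox replicate 3. The G2 and mitosis list stood elsewhere at 24 h, with 30 of 48 genes higher, 0 lower and a median of 0.42, led by *Aurka*, *Cdc25b* and *Plk1*. Of all genes, 10.6% were higher and 10.9% lower. The spinous and granular markers summed to 1849 to 2129 in -dox and 1319 to 1400.4 in +dox libraries, the fibroblast markers to 263 to 284 and 359 to 411, and the mitochondrial share was 0.838 to 0.908% and 0.953 to 1.33%. Their part in these differences was not tested. *Aurka*, a kinase of the spindle poles, was higher by 0.69 (adjusted p = 0.000138). *Ccna2* was higher by 0.68 (adjusted p = 0.000420), and *Ccnd1* was still higher, by 1.18 (adjusted p = 0.000291).

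**Figure D4:**
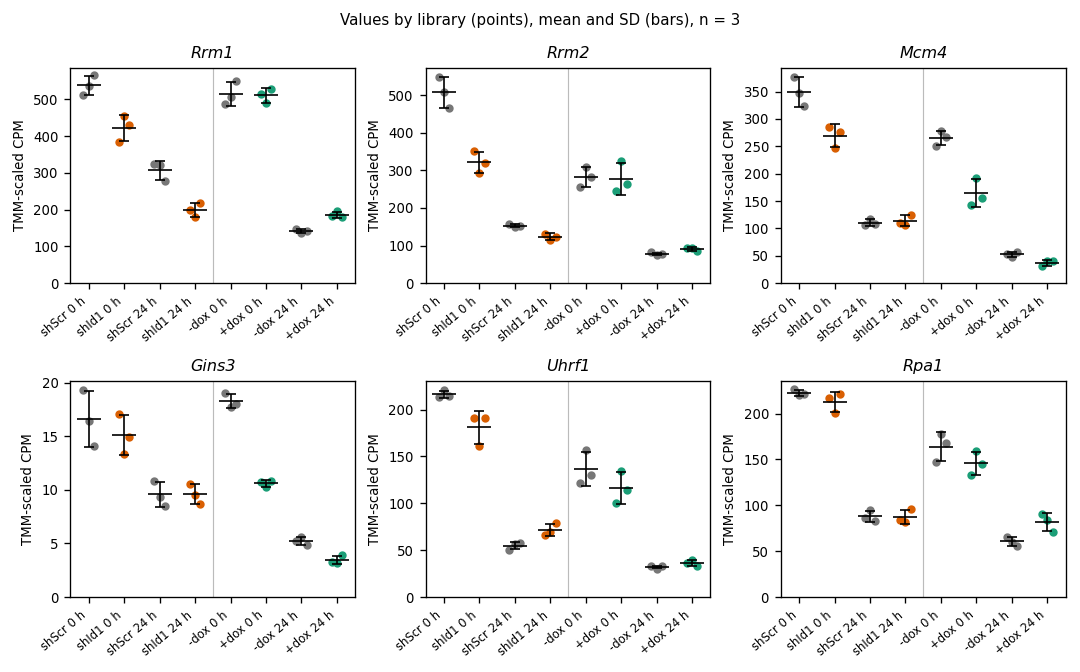
Values (TMM-scaled CPM, axis from 0) of *Rrm1*, *Rrm2*, *Mcm4*, *Gins3*, *Uhrf1* and *Rpa1* in the 24 libraries, with the mean and SD of each group of 3. *Rrm1* is lower in *shId1* than *shScr* at 24 h (198, 180.2 and 217 against 323, 320.2 and 277) and higher in +dox than -dox (183, 195 and 179 against 148, 136 and 141), while *Gins3* and *Mcm4* are lower in +dox at both times.

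Whether the manipulation of *Id1* altered the size of the fall was tested as an interaction. In the shRNA experiment the fall was smaller in *shId1* than in *shScr* cells for 3 members and larger for none in limma (3.92% of all genes had a positive and 3.59% a negative interaction). These were *Uhrf1* (0.64 ± 0.14, adjusted p = 0.0169), *Rfc5* (0.45 ± 0.12, adjusted p = 0.0390) and *Pola1* (0.67 ± 0.18, adjusted p = 0.0449). *Uhrf1* fell from 214, 221 and 215 to 50.6, 56.0 and 57.7 in *shScr* and from 192, 161 and 191 to 66.4, 69.4 and 79.1 in *shId1* cells. For each of the 3, the *shId1* mean lay below the *shScr* mean at 0 h and above it at 24 h. At an unadjusted p under 0.05, 8 were positive and 0 negative, a count of direction only, since the matching share of all genes is not given here. The median interaction over the 36 was 0.23, and 32 lay above 0, beside 0.00 over all genes. When same-numbered libraries were blocked 5 passed, and the count was 0 without *shScr* 0 h replicate 2 and 1 without any of *shScr* 0 h replicates 1 and 3, *shId1* 0 h replicates 2 and 3, *shScr* 24 h replicate 3 or *shId1* 24 h replicate 3.

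In the ID1 experiment the fall was smaller with doxycycline for *Rpa1* (0.59 ± 0.15, adjusted p = 0.0211), *Rrm1* (0.40 ± 0.11, adjusted p = 0.0283) and *Lig1* (0.58 ± 0.16, adjusted p = 0.0300), and larger for none in limma (2.37% of all genes were positive and 8.08% negative). At an unadjusted p under 0.05, 14 were positive and 1 negative, again without the matching share of all genes. *Rpa1* fell from 147, 177 and 168 to 65.9, 60.3 and 56.1 in -dox and from 134, 159 and 145 to 90.7, 84.3 and 70.9 in +dox cells. The median over the 36 was 0.38, with 33 above 0, beside -0.02 over all genes. In limma no member passed without -dox 0 h replicate 3, +dox 0 h replicate 1 or 3, -dox 24 h replicate 2 or 3, or +dox 24 h replicate 2. The count was 1 without -dox 0 h replicate 2, 9 without -dox 0 h replicate 1 and 12 without +dox 24 h replicate 3. In the G2 and mitosis list 23 of 48 genes passed, all positive, with a median of 0.57, and *Kif20a* led (1.01, adjusted p = 0.000365).

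The effects of knockdown and of induction were set against each other in a fit over all 24 libraries, in which no control is shared. At 0 h they differed for 3 of 36 members, 1 higher and 2 lower with induction (12.4% of all genes were higher and 9.47% lower). Both counts lie below the shares of all genes. *Rrm2* was lower with the hairpin and did not pass with doxycycline, at 255, 309.9 and 282 in -dox and 244, 325 and 263 in +dox libraries. The difference of the effects was 0.63 ± 0.14 (adjusted p = 0.00262). *Gins1* was 43.4, 44.3 and 42.6 in *shScr*, 50.7, 49.4 and 54.6 in *shId1* cells, and fell with doxycycline, a difference of -0.84 ± 0.19 (adjusted p = 0.00277). For *Gins3* the difference was -0.63 ± 0.18 (adjusted p = 0.0132). The remaining 33 members gave no call, and the median difference was -0.14. Without +dox 0 h replicate 2, 4 were lower, and the *Gins3* call was lost in edgeR, with 1 +dox library at 0 h (adjusted p = 0.120).

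At 24 h the effects differed for 7 members, 4 higher and 3 lower with induction (9.72% of all genes were higher and 11.8% lower). These counts are close to or below the shares of all genes. *Rrm1* had the lowest adjusted p, with opposite effects that differed by 1.01 ± 0.12 on the log2 scale (adjusted p = 9.06e-06), a ratio of 2.02. *Rrm1* and *Rrm2* passed in all 23 alternatives, while the other 5 were each lost in 5 to 10 of them. *Rrm2* differed by 0.52 ± 0.14 (adjusted p = 0.0124), *Rfc3* by 0.53 ± 0.17 (adjusted p = 0.0278) and *Rpa1* by 0.44 ± 0.14 (adjusted p = 0.0296). *Mcm4* (-0.55 ± 0.16, adjusted p = 0.0170), *Gins3* (-0.54 ± 0.18, adjusted p = 0.0328) and *Gins1* (-0.55 ± 0.19, adjusted p = 0.0436) were lower with induction relative to knockdown. The number of higher members was 2 without *shScr* 24 h replicate 2, *shId1* 24 h replicate 2, -dox 24 h replicate 3, or +dox 24 h replicate 1 or 2.

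**Figure D5:**
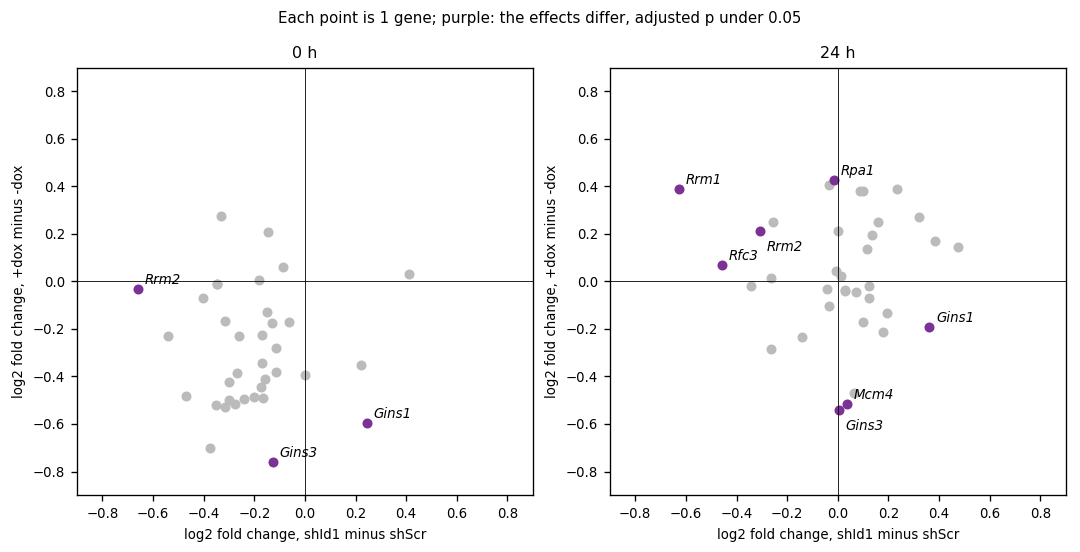
Each point is 1 of the 36 genes, with the log2 fold change of *shId1* over *shScr* on the x axis and of +dox over -dox on the y axis, at 0 h (left) and 24 h (right). Purple marks genes whose effects differ at an adjusted p under 0.05, 3 at 0 h and 7 at 24 h, with *Rrm1* at the upper left at 24 h (-0.63 and 0.39) and *Gins3* at the bottom at 0 h (-0.13 and -0.76).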

How the data were processed

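Poly(A) RNA of 24 cultured samples was sequenced with a strand-keeping kit. Reads were demultiplexed with bcl2fastq 2.19.1.403 and the build was GRCm38, per the labels and the study's methods. The aligner and counter are not given in the sources used here. The deposited values are a normalized signal: CPM that the authors scaled by TMM, named FPKM in the table's title but not divided by length. In all 24 libraries 100% of values were whole multiples of the value of 1 read (tolerance 0.05 of a read). Reads recovered in this way gave an alternative count test in edgeR 4.0.16. It used 18 libraries. The other 6 (*shId1* 0 h replicate 1, *shScr* 24 h replicate 1, *shId1* 24 h replicates 1 and 3, +dox 0 h replicates 2 and 3) did not pass a separate check of the steps on low values.

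Values were tested as log2(value + 0.5) with limma 3.58.1 in R 4.3.3 (trend, robust, two-sided, Benjamini-Hochberg over all genes that reached 1 in 3 or more libraries), 12 libraries per experiment and 24 for the comparison between experiments. Values of the members were described for the most changed passing gene of each role, for any that passed against the direction of most, and for all where 5 or fewer passed; further members in the text were chosen after their values were seen. The members and gene lists were chosen with earlier results of these data known. Same-numbered *shId1* and *shScr* libraries deviated together (r = 0.179 to 0.709 in the 6 pairs), so the blocked counts stand beside those results.

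Gene models came from GENCODE M21, which held 10814 of the 10818 gene IDs, and promoters from the RefSeq table of GRCm38.p6. Alternatives were another pseudocount, filter, scaling, set of libraries, replicate block, array weights, edgeR and leaving out each library.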

Additional observations from a re-analysis of the deposited data

Results flagged for a closer look

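The following genes are listed because a test found that 2 effects of the same kind differed, by an interaction term or by the contrast of both experiments. The change from 0 h to 24 h differed between *shId1* and *shScr* cells for *Uhrf1* (0.64), *Rfc5* (0.45) and *Pola1* (0.67 on the log2 scale), and between +dox and -dox cells for *Rpa1* (0.59), *Rrm1* (0.40) and *Lig1* (0.58). All 6 values are positive, that is, the fall was smaller with the hairpin or with doxycycline. Of all genes, 3.92% had a positive interaction in the shRNA and 2.37% in the ID1 experiment.

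The effect of induction minus that of knockdown at 0 h differed from 0 for *Rrm2* (0.63), *Gins1* (-0.84) and *Gins3* (-0.63). At 24 h it did so for *Rrm1* (1.01), *Rrm2* (0.52), *Rfc3* (0.53), *Rpa1* (0.44), *Mcm4* (-0.55), *Gins3* (-0.54) and *Gins1* (-0.55). *Rrm2*, *Gins1* and *Gins3* were called at both times, each with the same sign. The 24 h calls of *Gins1* and *Gins3* were each lost in 10 of 23 alternatives. Of all genes, 12.4% were higher and 9.47% lower at 0 h, and 9.72% and 11.8% at 24 h. The member counts are close to or below these shares.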

How the results depend on the processing

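The fall of the members upon differentiation kept its direction. Its counts were 31, 30, 33 and 33 of 36 beyond 2-fold in *shScr*, *shId1*, -dox and +dox cells, and 34 to 36 under the other alternatives, with 36, 36, 35 to 36 and 35 to 36 when 1 library was left out. A median log2 fold change moved by more than the spread between replicates in 8 cases: with edgeR, whose +dox 0 h group was replicate 1 alone, the library of that group with the lowest member sum (3174), for +dox against -dox at 0 h (-0.50), the interaction in the ID1 experiment (0.51) and induction minus knockdown at 0 h (-0.29), with array weights for these last comparisons (0.50 and -0.26) and for the fall in *shId1* cells (-1.18), for the fall in -dox cells without -dox 0 h replicate 1 (-2.11), and for +dox against -dox at 24 h without +dox 24 h replicate 3 (0.13).

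Counts of the other comparisons depended on the processing. In *shId1* against *shScr* at 0 h (5 lower), 2 passed with quantile normalization, 9 with the compared groups only, 9 with the replicate block, 12 with edgeR, 12 with a replicate block within each time (chosen after seeing the data), 17 with array weights, 0 beyond 2-fold, and 1 to 4 when 1 library was left out. At 24 h (3 lower) the counts were 1 with the compared groups only, 8 with array weights, 5 without the replicates numbered 1, 5 with the replicate block within each time, 0 beyond 2-fold, and 2 to 4 without 1 library. For +dox against -dox at 0 h (14 lower) they were 27 with array weights, 0 beyond 2-fold and 7 to 18 without 1 library, and at 24 h (4 higher) 2 with the compared groups only, 15 with array weights, 0 beyond 2-fold and 1 to 9 without 1 library. For the interaction in the shRNA experiment (3) they were 1 with quantile normalization, 5 with the replicate block, 7 with that within each time, 19 with array weights, 0 beyond 2-fold and 0 to 2 without 1 library. For that in the ID1 experiment (3) they were 5 with quantile normalization, 5 with all 24 libraries, 6 with the replicate block, 27 with array weights, 1 with edgeR, 0 beyond 2-fold and 0 to 12 without 1 library. For induction minus knockdown at 0 h (2 lower) they were 4 with the compared groups only, 19 with array weights, 0 beyond 2-fold and 2 to 4 without 1 library, and at 24 h (4 higher) 2, 10, 1 and 2 to 5 in the same order. The cause of these shifts was not tested. Under the replicate block 6.10% of all genes were lower for *shId1* against *shScr* at 0 h. Positive interactions under it were 6.13% of all genes in the shRNA and 2.31% in the ID1 experiment. Shares of all genes are not given here for the other scalings and sets of libraries, edgeR or the block within each time. Counts under these settings thus do not tell a change in the members from a looser or stricter test. Array weights, whose estimates did not fully converge, raised the share of all genes called as well. In the direction counted it was 20.3% at 0 h and 26.5% at 24 h for *shId1* against *shScr*. For +dox against -dox it was 27.1% and 28.7% in the same order. It was 24.9% and 17.7% for the interactions in the shRNA and ID1 experiments. For induction minus knockdown it was 27.1% at 0 h and 29.3% at 24 h. The replicate block left the other counts within 1.5 times, at 3 for *shId1* against *shScr* at 24 h, 16 and 5 for +dox against -dox at 0 h and 24 h, 36 in each calcium comparison, and 2 and 5 for induction minus knockdown.

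Libraries of the ID1 and calcium comparisons were not paired in the main test, since not every same-numbered pair correlated over 0.1. For +dox against -dox at 0 h the pairs had r = 0.276, 0.468 and -0.113. Whether same-numbered libraries belong together there is not known. Of the repeats of single member calls, 3210 kept their side of the threshold and 168 did not. With 3 libraries per group the precision is limited, and *Ccne2* and *Orc1* at 24 h in the ID1 experiment rest on few reads.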
